A study of Mus musculus with 14 samples.

Results

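The core genes of the circadian clock were followed in colon tissue of WT and miR-29ab1-/- mice, without and after dextran sulfate sodium (DSS), which injures the lining of the colon. The genes were 10, chosen by name among the 55889 genes of the table without DSS and the 54721 genes of the table after DSS, and all 10 were found in both. They were the activators Arntl, Clock and Npas2, the repressors Per1, Per2, Per3, Cry1 and Ciart, the nuclear receptor Nr1d1 and the output factor Dbp. They were also used to see how far mice of the same group stood apart in genes known to follow the daily cycle.

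In the mammalian clock, the ARNTL protein (also called BMAL1) binds DNA together with CLOCK or its relative NPAS2 and switches on the genes for PER, CRY, CIART, NR1D1 and DBP. The PER and CRY proteins then block that complex, which closes the loop over a day, and NR1D1 (REV-ERB alpha) represses Arntl and Npas2. For this reason Arntl and Npas2 transcripts are known to peak at the opposite time of day from Nr1d1, Dbp and Ciart, in most tissues and in the epithelium of the gut, where light and feeding set the phase.

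All mice were C57BL/6N. The 4 WT mice and 4 miR-29ab1-/- mice without DSS, and the 3 WT mice and 3 miR-29ab1-/- mice that drank 3.5% DSS for 3 days, were separate animals. The deletion removes the hairpins of miR-29a and miR-29b-1 in every cell, and the paper's methods give an age of 8 to 12 weeks and a cycle of 12 h light and 12 h dark for the study. The hour of tissue collection is not given in the sources used here. The mice without DSS and those after DSS came in different tables, so that DSS, experiment and day of sampling cannot be told apart. The columns after DSS give genotype and treatment but not which labelled animal they are, and the mice are called A, B and C.

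The reads on genes totalled 14231157 to 18185020 per mouse without DSS and 20076719 to 23153149 after DSS, and each WT library without DSS was larger than each miR-29ab1-/- library. The deleted hairpins gave 0 or 1 read in every mouse of either genotype. Lncpint, a long noncoding RNA beside the hairpins, had 7 to 23 reads without the deletion and 1386 to 2889 with it in the mice without DSS, and 6 to 14 against 706 to 1144 after DSS, which places each mouse with its labelled genotype. The labels give small intestine crypts as the tissue while the paper gives colon. The summed level of 6 colon epithelium markers (Car1, Slc26a3, Aqp8, Hoxd13, Cdx2 and Krt20) was 1737 to 8442 CPM (read counts scaled to library size) over the 14 mice, that of 6 small intestine markers was 14.4 to 62.1 CPM, and that of 5 smooth muscle markers was 1.04 to 3.94 CPM. The tissue was therefore treated as colon epithelium with little muscle layer. In bulk tissue, fewer cells of a type and less RNA per cell cannot be told apart. Levels were scaled by edgeR's TMM method over all 14 mice. With 3 reads as a floor, 0.141 to 0.194 CPM could be detected, which covers counting error only.

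Clock proteins are known to act on clock genes through short promoter motifs, shown here for the members that carry them. RefSeq promoters (GRCm38.p6, 250 bases before to 50 after the start) were found for 9 of the 10 genes, in 13 promoters, and not for Per2. The E-box CACGTG, the site of the ARNTL complex, reads the same on both strands and was in 2349 of 32851 promoters of that length (7.15%). It was in promoters of 3 members, Ciart, Cry1 and Per1, and the promoter of Ciart held 3 copies, starting 116, 58 and 44 bases before the transcript start. The D-box TTATGTAA or TTACGTAA, the site of DBP and its relatives, searched on both strands, was in 347 promoters (1.06%) and among the members in Per3, in 2 copies. The RORE, the element that NR1D1 and the ROR receptors share, searched in its long form on both strands, was in 72 promoters (0.219%) and among the members in one promoter of Arntl, 27 bases past the start. The motifs do not overlap in these promoters. The 5 promoters below are on GRCm38.p6, at chr3:95882179-95882478 (reverse strand) for Ciart, chr10:85185005-85185304 (reverse strand) for Cry1, chr11:69098699-69098998 (forward strand) for Per1, chr4:151044616-151044915 (reverse strand) for Per3 and chr7:113207261-113207560 (forward strand) for Arntl. Capitals mark the motif.
Ciart: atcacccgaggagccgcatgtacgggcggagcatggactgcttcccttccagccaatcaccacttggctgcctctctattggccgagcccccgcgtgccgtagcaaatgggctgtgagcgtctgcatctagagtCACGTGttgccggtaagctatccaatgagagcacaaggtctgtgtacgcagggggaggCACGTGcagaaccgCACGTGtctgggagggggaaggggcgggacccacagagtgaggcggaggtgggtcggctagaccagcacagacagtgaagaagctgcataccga
Cry1: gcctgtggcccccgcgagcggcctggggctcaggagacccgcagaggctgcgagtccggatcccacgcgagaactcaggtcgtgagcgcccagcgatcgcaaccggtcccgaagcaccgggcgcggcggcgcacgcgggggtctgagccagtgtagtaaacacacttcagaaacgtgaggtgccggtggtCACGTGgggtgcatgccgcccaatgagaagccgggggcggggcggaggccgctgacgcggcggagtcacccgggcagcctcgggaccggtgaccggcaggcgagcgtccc
Per1: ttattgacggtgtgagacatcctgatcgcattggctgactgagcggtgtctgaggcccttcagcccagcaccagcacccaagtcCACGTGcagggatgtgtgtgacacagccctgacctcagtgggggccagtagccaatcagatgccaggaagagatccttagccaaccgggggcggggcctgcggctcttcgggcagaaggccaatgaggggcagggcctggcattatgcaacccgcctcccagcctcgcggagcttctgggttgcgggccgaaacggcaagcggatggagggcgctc
Per3: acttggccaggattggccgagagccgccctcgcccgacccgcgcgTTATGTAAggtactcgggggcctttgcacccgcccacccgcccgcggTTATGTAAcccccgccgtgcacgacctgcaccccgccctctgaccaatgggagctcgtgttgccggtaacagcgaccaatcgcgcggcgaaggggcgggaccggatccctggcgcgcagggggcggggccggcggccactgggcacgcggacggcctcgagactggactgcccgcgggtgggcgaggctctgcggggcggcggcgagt
Arntl: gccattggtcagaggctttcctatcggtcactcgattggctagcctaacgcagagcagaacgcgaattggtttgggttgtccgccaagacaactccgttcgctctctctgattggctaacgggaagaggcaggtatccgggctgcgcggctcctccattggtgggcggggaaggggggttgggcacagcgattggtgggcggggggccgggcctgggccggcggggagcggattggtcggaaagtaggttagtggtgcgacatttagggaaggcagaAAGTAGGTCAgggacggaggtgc
A match is a description of these letters in this window, and promoters without one can hold other forms of the motif. The promoters of Clock, Npas2, Nr1d1 and Dbp held none of these motifs. Whether a motif goes with the relations between genes below was not tested.

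A microRNA is known to repress transcripts that hold a match to its seed, and the members were searched for such sites of miR-29. The same miR-29b-3p sequence is also encoded by Mir29b-2 on chromosome 1 (195037091 to 195037113, forward strand), which is not one of the deleted hairpins. Both mature 3p arms of the deleted hairpins, on the reverse strand of chromosome 6, share their seed. It is shown here in capitals as bases 2 to 8 in the RefSeq sequences of GRCm38.p6.
miR-29a-3p (chr6:31062673-31062694): uAGCACCAucugaaaucgguua
miR-29b-3p (chr6:31063025-31063047): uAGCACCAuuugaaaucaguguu
Of 21020 protein-coding genes with a 3′ UTR in GENCODE vM21, 2905 (13.8%) held a match to the seed, TGGTGCT, in at least one transcript. Among the 10 clock genes 3 did. Clock held 2 matches, one of them followed by A (an 8mer, which 2.99% of the genes hold), Per1 held 1 and Per3 held 3. The sites are shown with the match in capitals.
Clock site 1: catagtccagtaaagTGGTGCTtgaacata
Clock site 2: tatgagtgatttcaaTGGTGCTAtattagg
Per1: ggaccatggagtcccTGGTGCTgcccctca
Per3 site 1: aggttttgtacagcaTGGTGCTtctcttcc
Per3 site 2: tgtcctctcactgtcTGGTGCTctggttta
Per3 site 3: ggcttgatttgaaaaTGGTGCTgtagtcag

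All 10 genes were expressed in WT colon without DSS, with Ciart the lowest. Per kilobase of gene length, the scale on which genes can be compared, the mean level in CPM per kilobase was 13.7 ± 7.67 (SD, n = 4) for Nr1d1, 6.24 ± 0.626 for Clock, 5.38 ± 1.99 for Per2 and 5.26 ± 6.06 for Dbp. It was 4.80 ± 1.42 for Per1, 4.72 ± 2.64 for Npas2, 4.19 ± 0.478 for Cry1, 3.37 ± 1.77 for Arntl, 3.12 ± 1.47 for Per3 and 1.72 ± 1.64 for Ciart. No neighbouring genes in this order differed by more than the larger SD of the pair. The SD of Dbp exceeded its mean, whereas that of Clock was small.

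The clock genes differed widely between mice of the same genotype. The activators are described first. Arntl (chromosome 7, 113207465 to 113314126, forward strand) was at 40.9, 19.1, 31.1 and 10.5 CPM in WT mice 1 to 4 and at 46.1, 42.6, 28.5 and 7.11 CPM in miR-29ab1-/- mice 1 to 4. After DSS it was at 35.4, 67.4 and 64.8 CPM in WT mice A to C and at 52.3, 49.4 and 68.3 CPM in miR-29ab1-/- mice A to C. Mouse 4 of each genotype was the lowest of its group, and among the DSS-treated mice WT mouse A was the lowest. Npas2 (chromosome 1, 39193731 to 39363236, forward strand), which can take the place of CLOCK, was at 39.1, 17.3, 24.6 and 9.34 CPM in WT mice and at 35.1, 32.6, 20.5 and 5.69 CPM in miR-29ab1-/- mice. With DSS it was at 22.1, 41.1 and 43.9 CPM in WT mice and at 39.4, 32.5 and 41.9 CPM in miR-29ab1-/- mice. The lowest mice were those with the lowest Arntl, except that miR-29ab1-/- mouse B, the lowest of its group for both, stood above WT mouse A. Clock (chromosome 5, 76209868 to 76304792, reverse strand) lay between 71.0 and 109.8 CPM in all 14 mice, a narrower range than that of its partners.

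The outputs were high in mice with the lowest Arntl. Dbp (chromosome 7, 45705088 to 45710203, forward strand), a bZIP factor of metabolic genes whose transcript is among the strongest cycling ones, was at 3.20, 15.4, 2.91 and 41.5 CPM in WT mice 1 to 4 and at 3.34, 1.34, 4.81 and 27.2 CPM in miR-29ab1-/- mice 1 to 4. In the DSS-treated mice it was at 23.3, 0.752 and 2.67 CPM in WT mice A to C and at 1.92, 5.31 and 1.60 CPM in miR-29ab1-/- mice A to C. The highest mouse of each group without DSS was mouse 4, and after DSS WT mouse A was highest, so that the highest level was 14.3 times the lowest in WT mice, 20.2 times in miR-29ab1-/- mice, 31.0 times in DSS-treated WT mice and 3.32 times in DSS-treated miR-29ab1-/- mice. Ciart (chromosome 3, 95878503 to 95882251, reverse strand), a repressor of the ARNTL complex, was at 0.887, 4.13, 1.503 and 9.03 CPM in WT mice and at 0.680, 0.616, 1.91 and 9.31 CPM in miR-29ab1-/- mice. After DSS it was at 2.64, 0.470 and 0.267 CPM in WT mice and at 0.407, 1.85 and 0.376 CPM in miR-29ab1-/- mice, from 5 to 56 reads. Mouse 4, again, and WT mouse A after DSS were the highest. Nr1d1 (chromosome 11, 98767932 to 98775333, reverse strand), which closes the second loop of the clock by repressing Arntl, was at 17.0, 65.5, 27.4 and 58.7 CPM in WT mice and at 8.28, 12.3, 37.0 and 58.2 CPM in miR-29ab1-/- mice. With DSS it was at 118, 24.5 and 13.6 CPM in WT mice and at 59.9, 116 and 22.2 CPM in miR-29ab1-/- mice. Here WT mice 2 and 4 were alike, and among the DSS-treated mice WT mouse A and miR-29ab1-/- mouse B were alike.

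**Figure D1:**
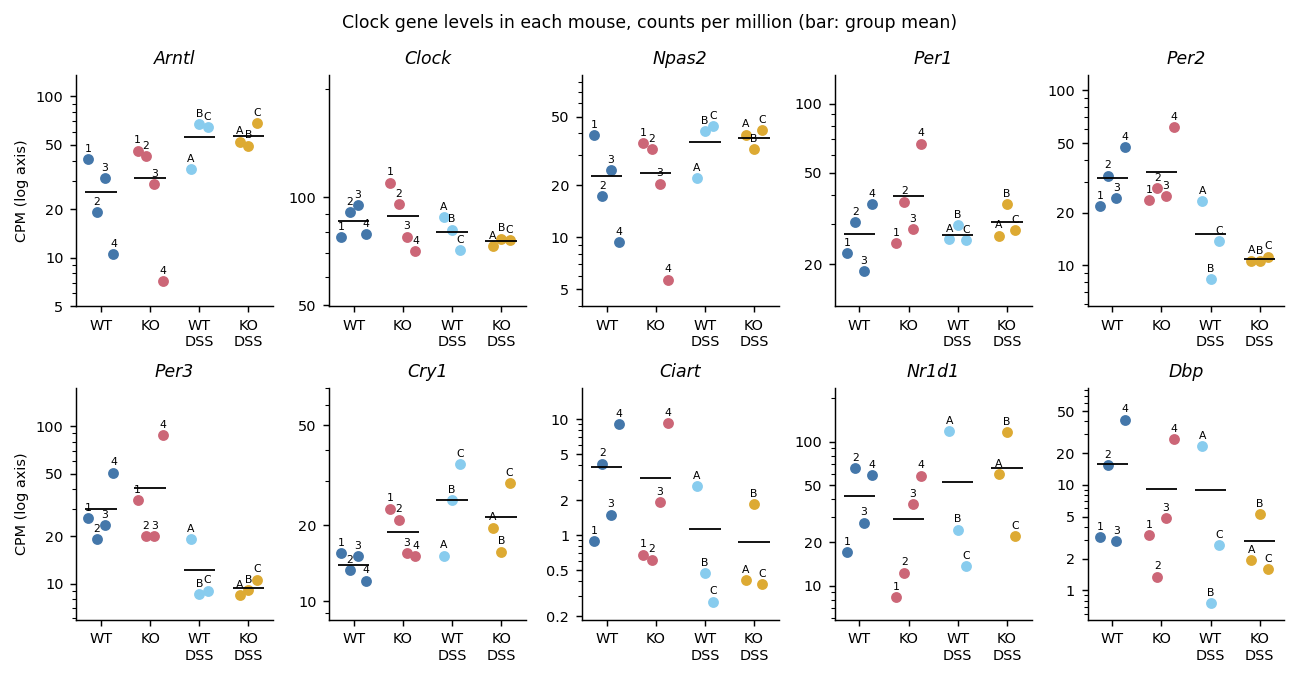
Level of each clock gene in CPM (log axis) for each mouse in the 4 groups, numbered or lettered by mouse (KO, miR-29ab1-/-), with bars at the group means. Mouse 4 of both genotypes was lowest for Arntl and Npas2 and highest for Dbp and Ciart, and DSS-treated WT mouse A stood in the same way from its group.

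The Per and Cry genes encode the repressors that bind the ARNTL complex. Per2 (chromosome 1, 91415982 to 91459324, reverse strand) was at 21.8, 32.5, 24.1 and 47.5 CPM in WT mice and at 23.5, 27.6, 24.7 and 61.6 CPM in miR-29ab1-/- mice, and after DSS at 23.3, 8.32 and 13.8 CPM in WT mice and at 10.6, 10.6 and 11.2 CPM in miR-29ab1-/- mice. Per3 (chromosome 4, 151003652 to 151044665, reverse strand) was at 26.2, 19.2, 23.6 and 50.7 CPM in WT mice and at 34.0, 20.1, 20.1 and 87.8 CPM in miR-29ab1-/- mice, and after DSS at 19.2, 8.60 and 9.01 CPM in WT mice and at 8.42, 9.07 and 10.6 CPM in miR-29ab1-/- mice. For both genes mouse 4 was the highest without DSS and all DSS-treated miR-29ab1-/- mice lay below every untreated mouse. Per1 (chromosome 11, 69095217 to 69109960, forward strand) lay in a range of 18.7 to 36.5 CPM in WT mice, 24.8 to 67.1 CPM in miR-29ab1-/- mice and 25.5 to 36.5 CPM after DSS. Cry1 (chromosome 10, 85131700 to 85185064, reverse strand) was at 15.5, 13.3, 15.1 and 12.1 CPM in WT mice and at 23.4, 21.1, 15.5 and 15.1 CPM in miR-29ab1-/- mice, and with DSS at 15.2, 25.1 and 35.1 CPM in WT mice and at 19.6, 15.7 and 29.5 CPM in miR-29ab1-/- mice. Cry1 stood in the order of Arntl in untreated WT mice, the reverse of Per2.

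Set against other genes, this spread was large. The SD of log2 CPM between mice of a genotype, pooled over both genotypes, was 1.80 for Dbp, 1.58 for Ciart, 1.13 for Nr1d1, 1.07 for Arntl and 1.05 for Npas2 without DSS, against a median of 0.24 over the 16370 genes kept in both experiments. Among the 1000 genes nearest in level these values ranked at the 99.8, 99.5, 99.0, 98.9 and 99.5 percentile. Per3 (0.83), Per2 (0.58) and Per1 (0.54) ranked at the 98.0, 96.4 and 96.2 percentile, while Clock (0.23) and Cry1 (0.25) were at the 80.2 and 73.9 percentile. After DSS, Nr1d1 (1.42), Dbp (1.82) and Ciart (1.34) again ranked at the 99.9, 99.7 and 98.8 percentile. Arntl, Npas2, Per2, Per3 and Cry1 ranked at the 93.9, 94.3, 96.2, 95.3 and 96.6 percentile. Per1 (0.19) and Clock (0.11) had SDs below the median of all genes, 0.23. Among the genes nearest in level they ranked at the 67 and 41.5 percentile. These ranks describe these libraries and were not tested.

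**Figure D2:**
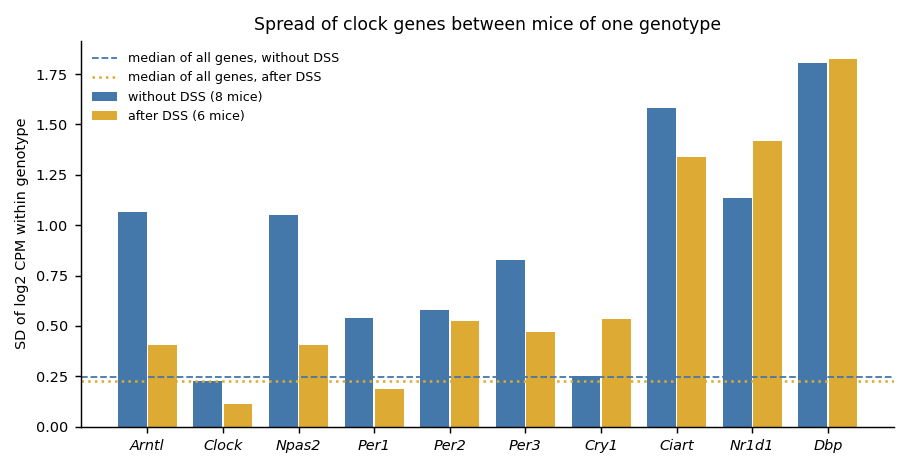
SD of log2 CPM between mice of the same genotype, pooled over both genotypes, for each clock gene without DSS (8 mice) and after DSS (6 mice), with lines at the median over all genes kept. The bars of Dbp, Ciart and Nr1d1 exceed 1.1 in both experiments, while the bars of Clock lie below both lines.

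Mice with more Arntl had more Npas2 and less Ciart and Dbp. Over the 8 mice without DSS, the relation of log2 CPM with Arntl was tested for the 9 other genes by exact permutation, with adjustment over 18 relations in both experiments. Npas2 had a Pearson's r of 0.99 (permutation p = 9.92e-05, adjusted p = 0.00089) and a Spearman's rho of 0.93 (adjusted p = 0.0201). Ciart had an r of -0.98 (permutation p = 4.96e-05, adjusted p = 0.00089) and a rho of -0.98 (adjusted p = 0.00714). For Nr1d1 r was -0.84 (permutation p = 0.00972, adjusted p = 0.0292) and rho -0.90 (adjusted p = 0.0274). These 3 genes passed by both measures, and kept r values of 0.94, -0.99 and -0.97 without the 2 mice farthest from the median of Arntl, which were WT mouse 4 and miR-29ab1-/- mouse 4.

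Others passed by Pearson's r only. Per2 (r = -0.96, permutation p = 0.00129, adjusted p = 0.00774) and Dbp (r = -0.92, permutation p = 0.00203, adjusted p = 0.00915) each had a rho of -0.81 (adjusted p = 0.0784), and r values of -0.71 and -0.85 without the 2 mice. For Per1 (r = -0.75, permutation adjusted p = 0.0469) and Per3 (r = -0.76, permutation adjusted p = 0.0469) the rho values were -0.50 and -0.24, and r became -0.09 and 0.67 without the 2 mice, so that these relations rest on mouse 4 of each genotype. Clock (r = 0.66, permutation adjusted p = 0.102) and Cry1 (r = 0.67, permutation adjusted p = 0.0859) did not pass.

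Over the 6 mice after DSS the relations that passed had the signs found without DSS. Npas2 (r = 0.95, permutation p = 0.00694, adjusted p = 0.0250), Cry1 (r = 0.86, permutation p = 0.0292, adjusted p = 0.0469), Dbp (r = -0.92, permutation p = 0.0167, adjusted p = 0.0429), Ciart (r = -0.87, permutation p = 0.0194, adjusted p = 0.0437) and Nr1d1 (r = -0.87, permutation p = 0.0292, adjusted p = 0.0469) passed by Pearson's r, and none of the 9 genes by rho, where Dbp had the smallest adjusted p, 0.0945 (rho = -0.89). Without WT mouse A and miR-29ab1-/- mouse B, which were farthest from the median of Arntl, r over the other 4 mice was 0.67 for Npas2, 0.75 for Cry1, -0.35 for Dbp, -0.09 for Ciart and -0.83 for Nr1d1, so that the relations of Dbp and Ciart rest on those mice. Clock, Per1, Per2 and Per3 did not pass, with r values of -0.61, 0.05, -0.75 and -0.76.

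**Figure D3:**
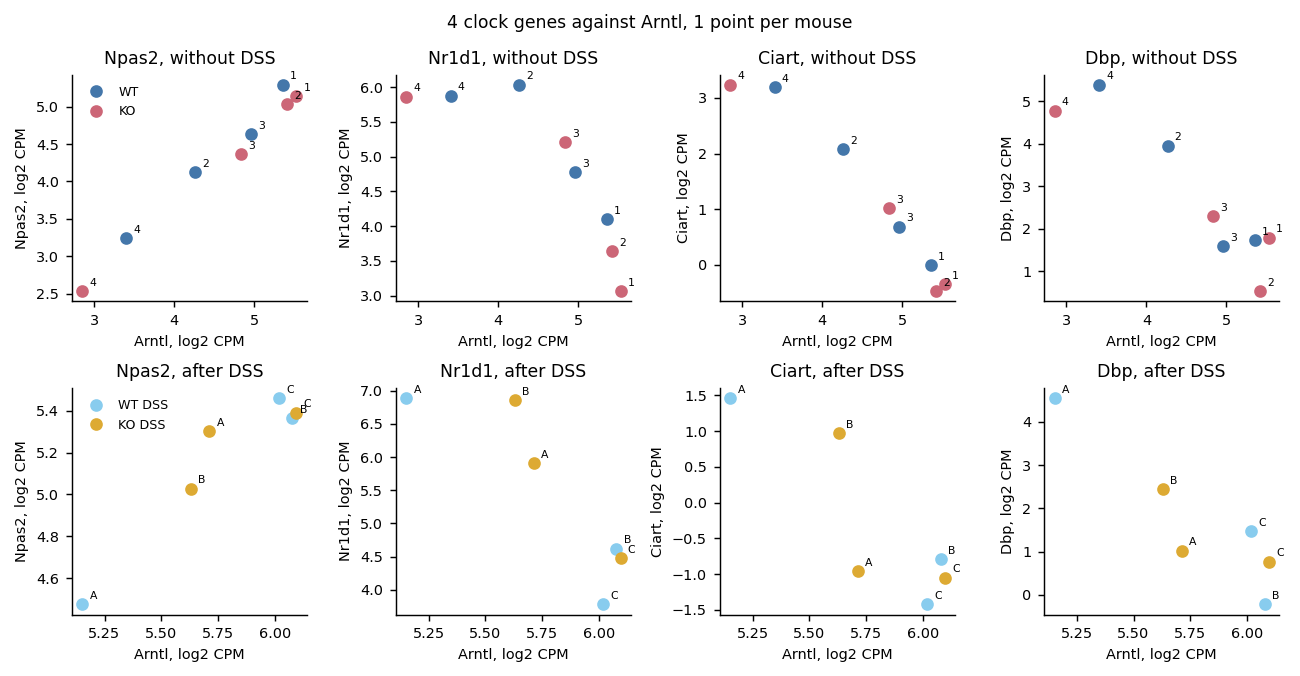
Log2 CPM of Npas2, Nr1d1, Ciart and Dbp against log2 CPM of Arntl, 1 point per mouse, without DSS above and after DSS below. Npas2 rises with Arntl and the other 3 genes fall, and both genotypes lie along the same course.

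To place each mouse on 1 scale, the mean log2 CPM of Per3, Nr1d1, Dbp and Ciart was subtracted from that of the activators Arntl, Clock and Npas2, with no test. The difference was 3.01, 0.88, 2.48 and -0.71 in WT mice 1 to 4 and 3.42, 3.67, 1.95 and -1.24 in miR-29ab1-/- mice 1 to 4. After DSS it was 1.07, 4.25 and 4.12 in WT mice and 3.47, 2.28 and 4.01 in miR-29ab1-/- mice. WT mouse 4 and miR-29ab1-/- mouse 4 alone were below 0. The group means were 1.42 ± 1.68 (SD, n = 4) in WT mice, 1.95 ± 2.25 (SD, n = 4) in miR-29ab1-/- mice, 3.15 ± 1.80 (SD, n = 3) in DSS-treated WT mice and 3.25 ± 0.89 (SD, n = 3) in DSS-treated miR-29ab1-/- mice. The hour of collection of each mouse is not known here, and its part in these values was not tested. The ranges of WT and miR-29ab1-/- mice overlapped in both experiments, and those of untreated and DSS-treated mice overlapped in both genotypes.

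**Figure D4:**
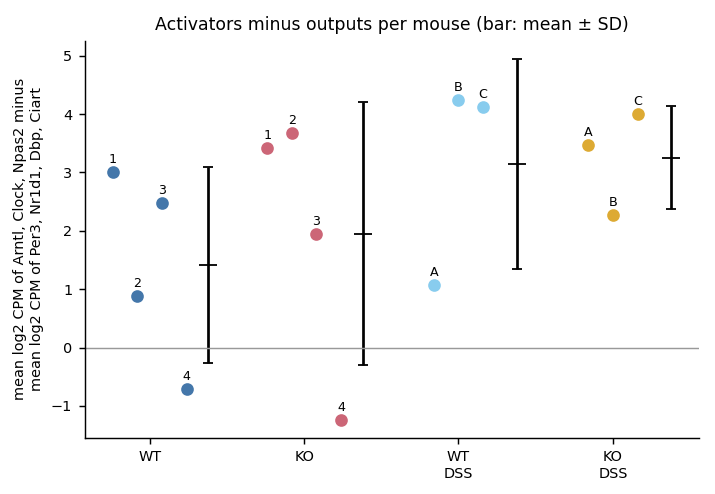
Mean log2 CPM of Arntl, Clock and Npas2 minus mean log2 CPM of Per3, Nr1d1, Dbp and Ciart for each mouse, with the mean ± SD of the group beside the points. The 2 mice numbered 4 lie below 0 and the 4 groups overlap.

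Genes outside the 10 with the pattern most like Dbp were sought over the 14 mice, as log2 CPM centred on the group mean, among 12270 genes with a mean log2 CPM above 1. The highest Pearson's r were those of Tef (0.99), a bZIP factor of the Dbp family, Nr1d2 (0.94), the close relative of Nr1d1, Slc2a5 (0.92), a fructose transporter, Narf (0.92) and the predicted gene Gm7658 (0.90). The lowest were those of Galnt7 (-0.90), Nepro (-0.90), Plagl2 (-0.90), Arhgap26 (-0.88) and Rhbdf2 (-0.88). Among the members, Ciart (0.91), Per2 (0.90) and Nr1d1 (0.80) were most like Dbp, and Arntl (-0.86) and Npas2 (-0.86) least. These r values share the 14 libraries and are a description, with no test.

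The first comparison asked whether loss of miR-29a/b-1 changed the clock genes in unchallenged colon. None of the 10 passed an adjusted p under 0.05 by edgeR's quasi-likelihood test with Benjamini-Hochberg adjustment over 15441 genes, where 0.0194% of all genes did, and none by DESeq2. At an unadjusted p under 0.05, 1 of the 10 passed, against 3.67% of all genes. This was Cry1, whose mean was 13.99 CPM in WT mice, with an SD of 1.597 (n = 4), against 18.8 CPM with the deletion, with an SD of 4.09 (n = 4), or a log2 fold change (log2FC) of 0.42 with a standard error (SE) of 0.17 (edgeR adjusted p = 0.9995), with ranges that overlapped. In no clock gene were the genotypes apart, while 1.94% of all genes were.

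None of the other 9 passed. The log2FC was 0.56 (SE 0.34) for Per1, 0.45 (0.56) for Per3, 0.28 (0.61) for Arntl, 0.14 (0.38) for Per2, 0.05 (0.14) for Clock and 0.04 (0.61) for Npas2. Those of Dbp (-0.76, SE 1.18), Nr1d1 (-0.53, SE 0.70) and Ciart (-0.29, SE 1.03) were negative. The median of the 10 was 0.09, against -0.0016 over all genes tested. For Dbp the 95% interval ran from -3.07 to 1.56, so that a difference of several fold in either direction could not be detected, whereas for Clock it ran from -0.22 to 0.32. Leaving out 1 mouse turned the sign of 6 of the 10: without WT mouse 4 Dbp was at 0.37, Ciart at 0.53 and Npas2 at -0.22, without miR-29ab1-/- mouse 4 Per2 was at -0.31 and Per3 at -0.27, and without miR-29ab1-/- mouse 1 Clock was at -0.07. Npas2 also turned without WT mouse 2 or miR-29ab1-/- mouse 1 or 2 (-0.07, -0.22 and -0.15), and Ciart without miR-29ab1-/- mouse 1 or 2 (0.04 and 0.06). The 3 genes with a miR-29 site, Clock, Per1 and Per3, had positive log2FC values, and so had Arntl, Npas2, Per2 and Cry1, which hold none. None of these 7 passed an adjusted p, and the signs of Clock and Per3 turned in the fits above.

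Of 10 other clock factors, such as the second CRY and the ROR receptors, 8 had enough reads and none passed, with Cry2 at log2FC 0.28 (SE 0.24). Of 8 kinases and ubiquitin ligases that set the turnover of PER and CRY proteins, none passed, with Csnk1e at 0.28 (SE 0.14). Of 8 genes that cycle in many tissues, none passed at an adjusted p, and Por, the electron donor of cytochrome P450 enzymes, had genotypes that did not overlap, 112 CPM in WT mice and 90.5 CPM in miR-29ab1-/- mice on average (log2FC -0.30, SE 0.09, unadjusted p = 0.00678, edgeR adjusted p = 0.9995). In none of the marker and response lists did a gene pass an adjusted p.

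After DSS, 9 of the 10 genes had enough reads to be compared between the genotypes, and Ciart did not. None of the 9 passed by edgeR's quasi-likelihood test with Benjamini-Hochberg adjustment over 14908 genes, where 0.0134% of all genes did, none at an unadjusted p under 0.05, where 7.24% did, and none by DESeq2. The genotypes overlapped in all 10, while 11.7% of the genes tested were apart. The log2FC values were -1.61 (SE 1.37) for Dbp, -0.49 (0.33) for Per2, -0.39 (0.31) for Per3, -0.22 (0.35) for Cry1 and -0.09 (0.10) for Clock. Nr1d1 was at 0.34 (1.06), Per1 at 0.17 (0.14), Npas2 at 0.08 (0.25) and Arntl at 0.02 (0.26). The difference of Dbp rested on WT mouse A, without which its log2FC was 0.78, and without the same mouse Arntl was at -0.23, Npas2 at -0.17 and Per3 at 0.08. Nr1d1 was at -0.35 without miR-29ab1-/- mouse B and at -0.01 and -0.12 without WT mouse B or C, Arntl was at -0.14 without miR-29ab1-/- mouse C, and Cry1 at 0.10 without WT mouse C. Of the 3 genes with a miR-29 site, Clock and Per3 had a negative and Per1 a positive log2FC after DSS.

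Among the other clock factors, Rora, a receptor that activates Arntl through the site that NR1D1 uses, did not overlap between genotypes after DSS. It was at 1.37 CPM in WT mice and 4.42 CPM in miR-29ab1-/- mice on average, a log2FC of 1.68 (SE 0.34, unadjusted p = 0.000804, edgeR quasi-likelihood adjusted p = 0.646). Wee1, a cell cycle kinase gene driven by the clock, was at 12.7 and 7.72 CPM, with no overlap (log2FC -0.72, SE 0.23, unadjusted p = 0.0128, adjusted p = 0.646). Btrc and Fbxw11, lower, and Gsk3b, higher, did not overlap either, where 11.7% of all genes tested were apart. Among the other clock factors, turnover genes and genes that cycle in many tissues, 8 were tested in each list. Rora and Wee1 alone of these had an unadjusted p under 0.05, against 7.24% of all genes. No gene of these lists passed an adjusted p.

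The next comparisons set DSS-treated against untreated mice of the same genotype, in 1 model of all 14 mice. In WT mice Cry1 was the one member to pass by edgeR's quasi-likelihood test with Benjamini-Hochberg adjustment over 16370 genes, and none was lower, where 20.2% of all genes passed as higher and 18.1% as lower. It rose to a mean of 25.2 ± 9.97 CPM (SD, n = 3) from 13.99 ± 1.597 CPM without DSS (SD, n = 4), a log2FC of 0.84 (SE 0.26, adjusted p = 0.0219), and the groups overlapped through WT mouse A, at 15.2 CPM. The call was lost without WT mouse 4 (0.78, adjusted p = 0.0525) and without DSS-treated WT mouse C (0.53, adjusted p = 0.138). By exact permutation of log2 CPM, where 0.0286 is the smallest p possible, p was 0.0571 for Cry1.

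Per2 and Per3 were lower in DSS-treated WT mice without passing. Per2 was at 31.5 ± 11.6 CPM (SD, n = 4) and 15.1 ± 7.59 CPM (SD, n = 3), a log2FC of -1.06 (SE 0.42, edgeR adjusted p = 0.0654). For Per3, at 29.9 ± 14.2 and 12.3 ± 6.01 CPM, it was -1.29 (SE 0.56, adjusted p = 0.0912), and the groups did not overlap by a small margin, 19.2097 against 19.2139 CPM, where 21.0% of all genes lay wholly lower. No clock gene lay wholly higher, against 22.4% of all genes. DESeq2 called both, with adjusted p of 0.0125 and 0.049, and without DSS-treated WT mouse A edgeR called Per2 (-1.51, adjusted p = 0.0265). By exact permutation, unadjusted, p was 0.0571 for Per2 and 0.0286 for Per3, the smallest possible. Arntl was at 25.4 ± 13.3 CPM (SD, n = 4) without and 55.9 ± 17.7 CPM (SD, n = 3) with DSS (log2FC 1.13, SE 0.56, adjusted p = 0.131). The log2FC values of Npas2 (0.66), Nr1d1 (0.31), Per1 (-0.01), Clock (-0.10), Dbp (-0.82) and Ciart (-1.77) had adjusted p of 0.258 or more. Without untreated WT mouse 4 Dbp was at 0.32 and Per1 at 0.17, and without DSS-treated WT mouse A Nr1d1 was at -1.14. Per1, near 0, also turned without untreated mouse 2 (0.06) and without DSS-treated mouse A (0.03) or C (0.04). The median of the 10 was -0.05, against -0.02 over all genes.

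In miR-29ab1-/- mice Per2 and Per3 fell with DSS, and these were 2 of the 10 members called, where 22.7% of all genes were called lower and 23.2%, with 0 of the members, higher. Per2 fell to a mean of 10.8 ± 0.349 CPM (SD, n = 3) from 34.4 ± 18.2 CPM without DSS (SD, n = 4), a log2FC of -1.67 (SE 0.43, edgeR quasi-likelihood adjusted p = 0.00800). Per3 fell to a mean of 9.37 ± 1.13 CPM (SD, n = 3) from 40.5 ± 32.2 CPM without DSS (SD, n = 4), a log2FC of -2.11 (SE 0.58, adjusted p = 0.0118). For both genes all 3 DSS-treated mice were below all 4 untreated mice, where 23.8% of all genes lay wholly lower. Both calls were kept in each of the 7 fits without 1 mouse. The size of the change leaned on miR-29ab1-/- mouse 4, without which the log2FC was -1.23 for Per2 and -1.40 for Per3.

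Arntl lay wholly higher in DSS-treated miR-29ab1-/- mice, as 24.6% of all genes did, at 31.1 ± 17.7 CPM (SD, n = 4) without and 56.7 ± 10.2 CPM (SD, n = 3) with DSS, and did not pass (log2FC 0.86, SE 0.56, edgeR adjusted p = 0.228). Nr1d1 (1.19, SE 0.90), Npas2 (0.69, SE 0.55) and Cry1 (0.20, SE 0.26) had positive log2FC values and Clock (-0.24, SE 0.13), Per1 (-0.38, SE 0.31), Dbp (-1.65, SE 1.44) and Ciart (-1.85, SE 1.22) negative ones, with adjusted p of 0.163 or more. Clock passed in the fit without miR-29ab1-/- mouse 4 (-0.33, adjusted p = 0.0492). The median of the 10 was -0.31, against -0.03 over all genes.

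**Figure D5:**
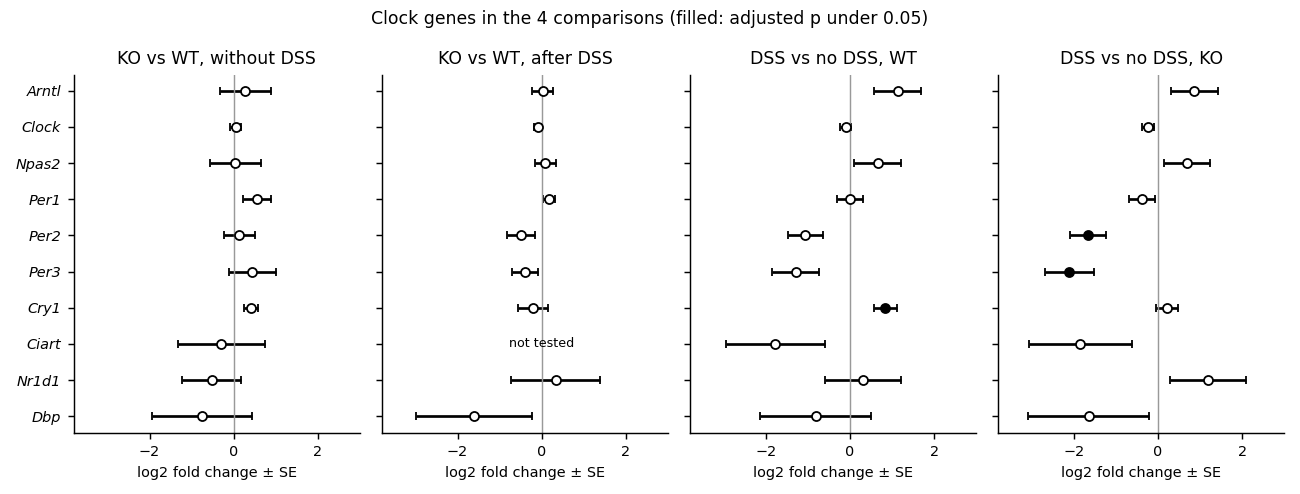
Log2 fold change ± SE (x axis) of each clock gene in the 4 comparisons, with filled points for an adjusted p under 0.05 by edgeR's quasi-likelihood test. Between genotypes no point is filled. With DSS, Cry1 is filled in WT mice and Per2 and Per3 in miR-29ab1-/- mice, and the errors of Dbp and Ciart exceed 1 in each comparison in which they were tested.

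Whether DSS acted on the clock genes differently in the genotypes was tested as an interaction, and none of the 10 passed by edgeR at an adjusted p, nor did any of the 16370 genes, and none by DESeq2. At an unadjusted p under 0.05, 0 of the 10 passed, against 4.03% of all genes. The interaction of Per2 was -0.61 (SE 0.58), of Per3 -0.82 (SE 0.78) and of Cry1 -0.64 (SE 0.38) on the log2 scale. The call of Per2 and Per3 in one genotype and of Cry1 in the other was therefore not shown to be a difference between the genotypes.

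Of the 25 other genes of the pathway with enough reads, in the 3 lists of other clock factors, turnover genes and genes that cycle in many tissues, 3 passed with DSS in WT mice (12%, against 38.3% of all genes) and 9 in miR-29ab1-/- mice (36%, against 45.9% of all genes). Bhlhe40, a repressor that competes for E-boxes, rose in miR-29ab1-/- mice from 108 to 192 CPM on average (log2FC 0.83, SE 0.20, edgeR quasi-likelihood adjusted p = 0.00353), and in WT mice it was at 0.50 (SE 0.20, adjusted p = 0.0600). Hlf, of the Dbp family, was called in miR-29ab1-/- mice (log2FC 2.48, adjusted p = 0.0342) through a single mouse. It was at 0.433, 0.112, 0.174 and 0.647 CPM without DSS and at 0.871, 4.53 and 0.376 CPM with DSS, with groups that overlapped, and without DSS-treated mouse B the log2FC was 0.88 (adjusted p = 0.471). The call was also lost without untreated mouse 1, 2 or 3 (adjusted p = 0.0550, 0.0876 and 0.0805), and without untreated mouse 4 the reads were too few to test. Bhlhe40 and Hlf were 2 of the 9 other clock factors tested in that genotype, and in WT mice 0 of 9 passed. Tef (-1.16 and -1.65) and Nr1d2 (-0.90 and -0.95) had negative log2FC values in WT and miR-29ab1-/- mice and did not pass. Of the 8 turnover genes, Gsk3b, a kinase of clock proteins, fell in WT mice (-0.25, adjusted p = 0.0312). In miR-29ab1-/- mice Csnk1e (-0.76, adjusted p = 0.00117), Btrc (-0.50, adjusted p = 0.00934) and Gsk3b (-0.24, adjusted p = 0.0293) fell and Csnk2a1 (0.25, adjusted p = 0.0349) rose. Of the 8 genes that cycle in many tissues, Wee1 fell in WT mice (-0.94, SE 0.17, adjusted p = 0.000717) and in miR-29ab1-/- mice (-1.59, SE 0.18, adjusted p = 8.69e-06). Por rose in both (0.40, adjusted p = 0.0117, and 0.73, adjusted p = 0.000123), and Dtx4 fell in miR-29ab1-/- mice (-0.66, adjusted p = 0.00991). In each fit without 1 mouse the calls were kept for Wee1 in both genotypes and for Bhlhe40, Csnk1e and Por in miR-29ab1-/- mice. The calls of Gsk3b were lost in 5 of 7 such fits in either genotype, and that of Csnk2a1 in 4. That of Btrc was lost without DSS-treated miR-29ab1-/- mouse C (-0.37, adjusted p = 0.0555), those of Dtx4 without DSS-treated mouse A or B (-0.53 and -0.58), and that of Por in WT mice without DSS-treated WT mouse C (0.33, adjusted p = 0.0626).

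Several other signals moved together with the DSS comparisons, and their part in the clock gene values was not tested. Of 8 immediate early genes, which respond within minutes to stimuli and can raise Per1, 7 rose in each genotype, with a median log2FC of 4.07 in WT mice and 4.29 in miR-29ab1-/- mice. Of all genes, 20.2% were called higher in WT mice and 23.2% in miR-29ab1-/- mice. In WT mice their summed level was 298 to 373 CPM without and 2677 to 5816 CPM with DSS, and in miR-29ab1-/- mice it was 312 to 537 CPM without and 4158 to 6627 CPM with DSS. Fos rose from 51.1 to 1163 CPM in WT mice on average (log2FC 4.51, SE 0.28, adjusted p = 3.45e-08). Per1 itself was not called, with 27.0 ± 8.01 CPM (SD, n = 4) without and 27.0 ± 2.29 CPM (SD, n = 3) with DSS in WT mice. Of 8 genes that respond to glucocorticoids, a daily signal to peripheral clocks, 5 rose in each genotype, Dusp1 most (3.84 and 4.43), and 1 (Klf9) fell. Of all genes, 18.1% were called lower in WT mice and 22.7% in miR-29ab1-/- mice, with the shares called higher as above. The summed level of the glucocorticoid-responsive genes was 421 to 620 CPM without DSS and 895 to 1437 CPM with it over both genotypes.

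Some markers of cell types moved with DSS as well, and their part in the clock gene values was not tested. The counts below stand beside 20.2% of all genes called higher and 18.1% called lower in WT mice. In miR-29ab1-/- mice these shares were 23.2% and 22.7%. The lists are short, and their counts were not tested against these shares. The 4 general epithelial markers (Epcam, Krt8, Vil1 and Cdh1) all rose with DSS in both genotypes, and their summed level, 6204 to 8413 CPM in untreated WT mice, was 12842 to 14283 CPM with DSS. In miR-29ab1-/- mice it was 6377 to 8205 CPM without and 13463 to 15589 CPM with DSS. Of 6 colon epithelium markers 3 rose in each genotype. Of 5 myeloid markers 3 passed as higher in miR-29ab1-/- mice, where 23.2% of all genes did, and 0 in WT mice, where 20.2% did. All 5 had positive log2FC values in both, with medians of 1.82 and 1.17, and 2 lay wholly higher in each. The summed level was 2.75 to 15.6 CPM without and 15.4 to 49.6 CPM with DSS in miR-29ab1-/- mice. In WT mice it was 3.58 to 14.7 CPM without and 12.04 to 25.1 CPM with DSS. None of the 5 passed in the interaction, so a difference between the genotypes was not shown. Of 4 B and plasma cell markers 2 fell in miR-29ab1-/- mice, and of 4 T cell markers 0 passed in either genotype. Of 4 small intestine markers tested 2 rose in each genotype and 1 fell in miR-29ab1-/- mice, of 3 fibroblast markers 1 rose in each, and of 3 enteric neuron markers 1 fell in each and 1 rose in miR-29ab1-/- mice. The 1 endothelial and the 1 smooth muscle marker tested did not pass. Of the smooth muscle markers Acta2, Myh11, Des and Cnn1 were too low to test, at 0.345 CPM or less on average in each group.

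Several of these genes share bases with others, and whether reads were counted by strand is not stated. Per3 lies within Camta1 on the same strand, over 41014 bases, and Camta1 had 240 reads per mouse on average without DSS. Clock shares 459 bases with the pseudogene Ube2n-ps1 and 4176 bases with Gm43658, both on the same strand. These had 111 and 3.88 reads per mouse on average without DSS. Nr1d1 shares 1075 bases with Thra and Dbp 737 bases with Sphk2, both on the other strand, and Ciart lies within the noncoding C920021L13Rik on the other strand. Thra had 766 and Sphk2 1478 reads per mouse on average, so that their part in the counts of Nr1d1 and Dbp cannot be told apart where the genes overlap.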

How the data were processed

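RNA was extracted with TRIzol and made into directional libraries, and HISAT2 and DESeq2 are named in the submitters' processing notes without versions. The counter, genome build and use of strand are not given in the sources used here. All 10 clock genes have the same positions as in GENCODE vM21 (GRCm38), so coordinates are on that build. Raw counts for each gene were deposited by the authors and used here, along with FPKM in 14 columns, not used, and group means, fold changes and p-values of their own comparison, also not used. The paper states that a WT and a miR-29ab1-/- sample were left out of its analysis without naming them. Its legends give 4 mice per genotype without DSS and 3 after DSS, the same numbers as here. Whether the samples left out are among the 14 mice cannot be told, and all 14 were used here.

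Counts were filtered with filterByExpr (minimum 10, total 15), scaled by TMM and tested with edgeR 4.0.16 in R 4.3.3 (glmQLFit, robust, and glmQLFTest), with Benjamini-Hochberg adjustment over all genes tested. Genotypes were compared within a table, and DSS and the interaction in 1 model of 4 groups over 54378 shared genes. Standard errors are the log2FC divided by the root of F. The 95% intervals follow from them by a normal quantile, which makes them too narrow with so few mice. Log2 CPM used a prior count of 2. Correlations and single genes were tested by two-sided exact permutation. The tests were tried on simulated data. Alternatives were DESeq2 1.42.0, RLE size factors, other filters, genes of the same length within 5%, 1 model for all mice, the replicate number as a block and each mouse left out. The 10 genes and all lists were chosen with earlier results of these data known. The text names all 10 clock genes, of the lists those with an adjusted p under 0.05 (at most 5 per direction) or otherwise up to 3 by smallest p, and the 5 genes most and least like Dbp. Fos, Dusp1, Klf9, Tef and Nr1d2 are named as examples. Same-numbered WT and miR-29ab1-/- mice are different animals. Over 15217 genes their deviations correlated by -0.20 to 0.15, and those of differently numbered mice by -0.28 to 0.27. This cannot tell whether same-numbered mice shared an hour or day of collection, and pairing within the clock genes was not tested.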

Additional observations from a re-analysis of the deposited data

Results flagged for a closer look

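Within the miR-29ab1-/- mice without DSS, Per2 of mouse 4 stood far from the others, at 61.6 CPM against 23.5 to 27.6 CPM. Its gap to the nearest mouse on the log2 scale was 0.836 of the whole range of the group, above the 0.829 that Dixon's test allows for 4 samples. Of 20 sets tested, each 1 gene in 1 group of 4 mice, this was the only one, and chance gives about 1 in 20. The sets share the same mice and are not independent. In WT mouse 4 Per2 was also the highest of its group, at 47.5 CPM, and did not pass this test.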

How the results depend on the processing

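The call of Per2 and Per3 in miR-29ab1-/- mice with DSS was kept under DESeq2, RLE size factors and no filter. It was also kept with at least 10 counts in every mouse, genes of the same length and in all 7 fits without 1 mouse. Under the edgeR and DESeq2 alternatives 0 clock genes were called between genotypes or in the interaction. By exact permutation, unadjusted, Per2 and Per3 in miR-29ab1-/- mice and Per3 in WT mice had p = 0.0286 with DSS, the smallest possible. Exact permutation called 0 between genotypes without DSS. After DSS the smallest p it allows is 0.1, so that it could call none, and it was not run for the interaction. In WT mice with DSS, no filter left 0 clock genes higher (Cry1 at edgeR adjusted p = 0.0532) and DESeq2 gave 2 lower, and the fits without 1 mouse gave 0 to 1 higher and 0 to 1 lower. In miR-29ab1-/- mice those fits gave 2 to 3 lower. Over all genes, the genotype called 3 higher and 0 lower without DSS and 2 higher and 0 lower after DSS. DESeq2 gave 13 and 11 without DSS and 44 and 15 after DSS, no filter 7 and 4 and then 32 and 14, and at least 10 counts 0 higher in both. Without 1 mouse, 3 to 4 higher and 0 to 1 lower were called without DSS, 0 to 54 higher and 0 to 39 lower after DSS (54 and 39 without miR-29ab1-/- mouse C), and 0 to 1 lower in the interaction. The cause was not tested.

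Leaving out 1 mouse turned the sign of 6 of 10 clock genes between genotypes without DSS, 6 of 9 after DSS, 3 of 10 with DSS in WT mice, 2 of 10 with DSS in miR-29ab1-/- mice and 4 of 10 in the interaction. Over the fits without 1 mouse, log2FC values between genotypes without DSS ran from -0.22 to 0.46 for Npas2, -0.071 to 0.14 for Clock, -0.31 to 0.39 for Per2, -0.27 to 0.81 for Per3, -1.84 to 0.53 for Ciart and -2.30 to 0.37 for Dbp. After DSS they ran from -0.23 to 0.17 for Arntl, -0.17 to 0.26 for Npas2, -0.60 to 0.085 for Per3, -0.51 to 0.10 for Cry1, -0.35 to 1.78 for Nr1d1 and -2.35 to 0.78 for Dbp. With DSS in WT mice they ran from -0.15 to 0.17 for Per1, -1.14 to 0.77 for Nr1d1 and -3.21 to 0.32 for Dbp, and in miR-29ab1-/- mice from -0.55 to 0.0017 for Per1 and -0.087 to 0.41 for Cry1. The interaction ran from -0.37 to 0.29 for Npas2, -0.55 to 0.0079 for Per1, -1.23 to 1.52 for Ciart and -1.97 to 1.57 for Dbp. With the mouse number as a replicate block, Npas2 without DSS was at -0.039, the calls over all genes stayed at 3 higher and 0 lower, and no clock gene was called. By difference in mean log2 CPM, Npas2 without DSS was at -0.054, and in WT mice with DSS Per1 was at 0.041 and Nr1d1 at -0.10, while with no filter Per1 was at 0.0016. The block was not run for the comparison after DSS or the interaction, because the DSS columns carry no number of the labels.

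Of the relations with Arntl without DSS, 1 positive passed, and 2 on linear CPM or centred on the genotype mean, Cry1 being added. Of 6 negative relations without DSS, 4 passed on linear CPM, where Per1 (r = -0.65) and Per3 (r = -0.66) were lost, each with a permutation adjusted p of 0.0765. After DSS 2 positive relations passed, and 1 on linear CPM, where Per1 had an r of -0.025. Depth limits Ciart most, with 5 to 56 reads after DSS.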
